A study of Rattus norvegicus with 224 samples.

Results

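The comparison set insulin against its vehicle in rat aortic smooth muscle cells kept in 25 mM glucose and harvested 6 h after the drug was added. Its members were the arrays whose labels give 6 h and high glucose: 27 arrays of insulin-treated cells against 27 of vehicle-treated cells, 54 of the 224 arrays in the series. RASMC grow out of explanted aorta of newborn rat pups and were passaged in culture, so they are dividing cells made quiescent by low serum and not vessel wall. All groups here had 25 mM glucose for the last 24 h of quiescence and onwards. The insulin groups then received 100 nM insulin and the vehicle groups phosphate-buffered saline, each followed by 1 of 7 drug conditions: the solvent DMSO, 3 doses of rapamycin (0.01, 1 and 100 ng/mL) and 3 doses of paclitaxel (0.01, 1 and 1000 ng/mL). Each of the 14 groups had an array from each of 4 replicate runs, A to D. The run A arrays of insulin-treated and vehicle-treated cells under 0.01 ng/mL rapamycin were left out because 99.4% of their scores were equal within 0.01 (correlation 0.99993), which leaves 3 arrays in those 2 groups and 4 in the other 12. The labels do not say that the runs were separate animals or separate isolations of cells, so the p-values measure the spread between these arrays. The labels and the design text also differ on the serum level, the dish size and the length of quiescence.

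Insulin binds a receptor tyrosine kinase that signals through PI3K and AKT. AKT keeps the FOXO transcription factors out of the nucleus and, through mTOR complex 1, promotes protein synthesis and translation of HIF-1 alpha, a factor that switches on glycolytic enzymes and the glucose transporter Slc2a1. Rapamycin inhibits mTOR complex 1, and paclitaxel stabilises microtubules. Vascular smooth muscle responds to insulin through both the insulin receptor and, at high concentrations, the related IGF1 receptor.

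Each array carried RNA of the cells in Cy5 beside a pooled newborn-rat reference in Cy3, and the deposited values were scores standardized to mean 0 and SD 1 in each array, over 11575 probes. A score is therefore in array SDs, a difference of 1 is 1 array SD and no fold can be read from it. A higher score is taken to mean more of the message in the cells, because the labels put the cells in Cy5. The lowest correlation between any 2 of the 54 arrays was -0.272, and over all 224 arrays it was -0.526. Probes were near centred over the series, with means between -0.207 and 0.217, so a score near 0 is close to the probe's own average, levels of different genes cannot be set against each other, and the smooth muscle identity of the cells could not be checked from marker levels. Markers of other cell types that an aortic explant could hold passed the test in 0 of 7 cases for endothelial cells, 0 of 6 for leukocytes, 0 of 3 for adventitial fibroblasts and 0 of 5 for cartilage and bone, with median differences of 0.104, -0.198, -0.0989 and -0.128 array SDs. Over all probes 1.84% passed, so 0 calls among so few markers is near that share and says little about such cells. These are bulk RNA measurements, in which a change in the number of cells of a kind or phase cannot be told apart from a change in RNA per cell.

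Insulin raised the messages of glucose uptake, glycolysis and lactate export and lowered mitotic messages together with a group that includes the genes for the yippee-family protein Ypel3, glutamine synthetase and presenilin 2. In the fit with drug and run accounted for, 213 of 11575 probes (1.84%) differed at a Benjamini-Hochberg adjusted p under 0.05. Insulin was higher for 102 probes (0.881%) and lower for 111 (0.959%). One gene symbol was available for 144 of the 213, which made 140 genes, and the platform annotation used here gave no symbol for the other 69. The difference had the same sign in all 4 runs for 179 of the 213 probes, against 17.7% of all probes, and the same sign in all 7 drug conditions for 153, of which 79 were higher and 74 lower, against 524 of all 11575 probes (4.53%). Because these calls were selected on the pooled difference, their shared signs are a description. The number of probes called depended on the runs kept: without run A 33 probes passed, without run C 29, without run B 392 and without run D 224. With the run rather than the array as the unit, 0 probes passed the adjusted threshold and 1143 had an unadjusted p under 0.05.

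Across the 29 gene lists, the list of glycolysis and HIF-1 target genes stood at the top by its median difference and the list of mitotic genes at the bottom. The 29 lists and their members were chosen with earlier results of these data known, so this order is a description and not independent evidence. The same holds for the counts of called members given for the lists below. Over all 6502 genes with a symbol, 65 (1%) were called higher and 67 (1.03%) lower, and the median difference was 0.00571.

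**Figure D1:**
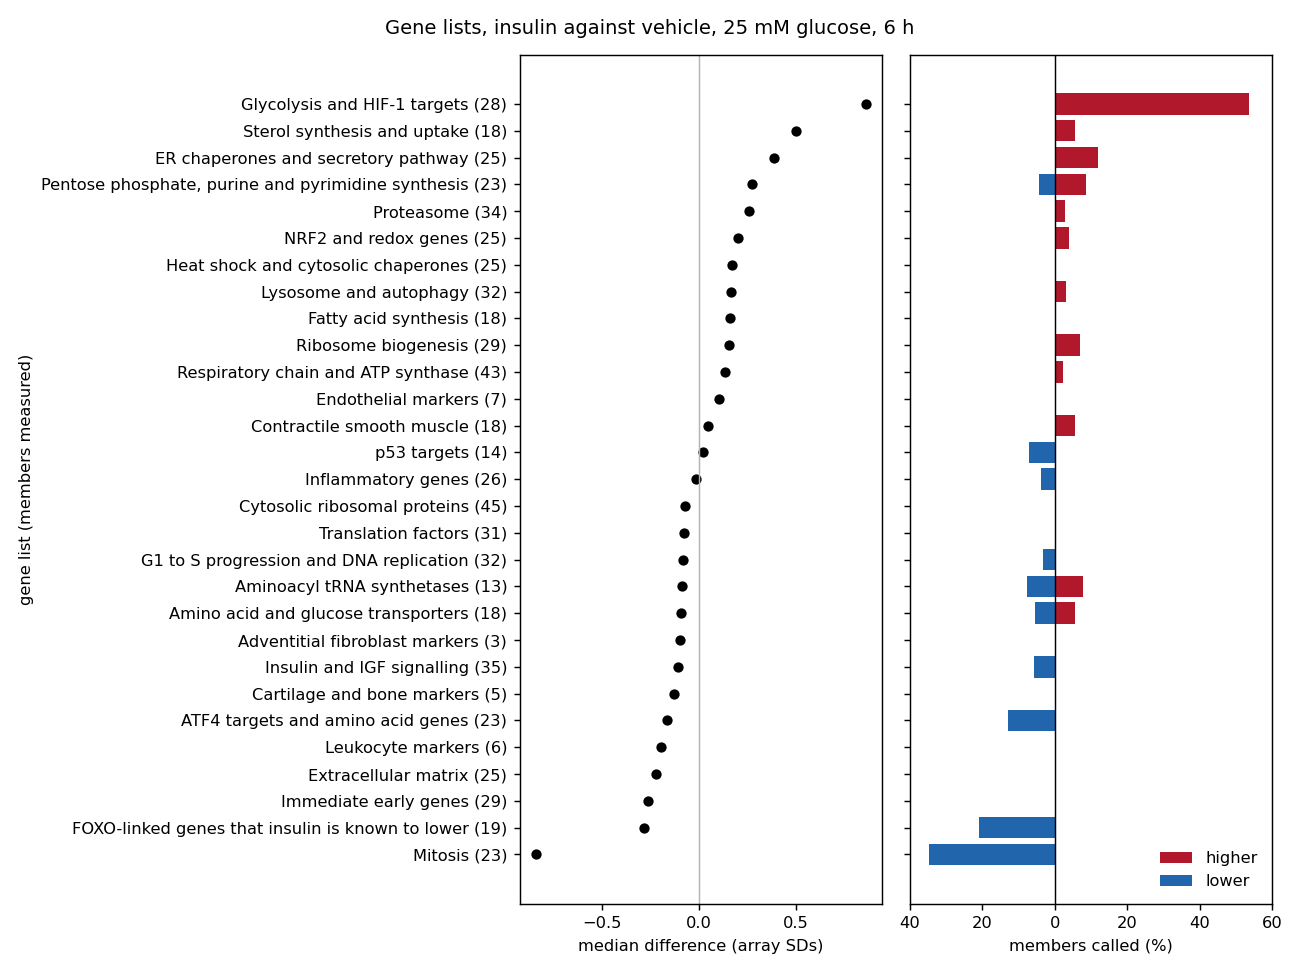
The 29 gene lists ordered by median difference, insulin minus vehicle, in array SDs (left, points) and the percentage of their measured members that passed the adjusted threshold (right, bars; lower to the left of 0, higher to the right). The glycolysis list is at the top with a median of 0.857 and the mitosis list at the bottom with -0.838.

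The enzymes that carry glucose to lactate were higher with insulin at most steps. Of 28 measured genes on the list of glycolysis and HIF-1 targets, 15 were called higher and 0 lower, and the median difference was 0.857 array SDs. The monocarboxylate transporter Slc16a3, which exports lactate, had the largest difference of any gene called. Its scores in insulin-treated cells had a lowest value of -1.67, a median of 1.12 and a highest of 5.31, against -3.93, -1.36 and 0.744 in vehicle-treated cells. The groups overlapped, but 17 of 27 insulin arrays lay above the highest vehicle array, and insulin was higher in 25 of 27 pairs of the same drug and run. The difference was 2.91 ± 0.365 (SE; adjusted p = 1.7e-06, limma).

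At the entry of the pathway, Slc2a1, the glucose transporter GLUT1, had a lowest score of -2.99, a median of 0.375 and a highest of 4.79 with insulin, against -4.21, -1.15 and 1.10 with vehicle, a difference of 2.14 ± 0.349 (SE; adjusted p = 0.000172). The muscle and fat transporter Slc2a4, which insulin moves to the cell surface, differed by -0.10 and did not pass. Hexokinase 1 (Hk1), which traps glucose in the cell, was higher by 0.702 ± 0.167. Glucose phosphate isomerase (Gpi) was higher by 1.13 ± 0.217. Of the phosphofructokinases, which set the pace of the pathway, the liver form Pfkl was higher by 1.27 ± 0.194 and the platelet form Pfkp by 0.678 ± 0.177, while the muscle form Pfkm differed by -0.14 and did not pass.

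In the lower part of glycolysis, aldolase A (Aldoa) was higher by 1.01 ± 0.198, triose phosphate isomerase (Tpi1) by 1.49 ± 0.272, phosphoglycerate kinase (Pgk1) by 1.42 ± 0.322 and phosphoglycerate mutase (Pgam1) by 1.32 ± 0.225. Aldolase C (0.856), enolase 1 (0.858) and pyruvate kinase Pkm (0.75) had positive differences that missed the threshold, with adjusted p-values of 0.0711, 0.212 and 0.0626. At the branch point, lactate dehydrogenase A (Ldha), which turns pyruvate to lactate, had a lowest score of -1.02, a median of 0.506 and a highest of 3.60 with insulin, against -3.81, -0.856 and 0.567 with vehicle. Its difference was 1.70 ± 0.256 (SE; adjusted p = 4.96e-05), and 13 of 27 insulin arrays lay above every vehicle array. Pyruvate dehydrogenase kinase 1 (Pdk1), which keeps pyruvate out of the mitochondrion, had -2.48, 0.048 and 3.92 with insulin, against -3.63, -1.53 and 0.322 with vehicle, and was higher by 1.80 ± 0.29 (SE; adjusted p = 0.000139). The lactate transporter Slc16a1, a relative of Slc16a3, differed by 0.144 and did not pass.

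HIF-1 targets outside glycolysis were uneven. The mitochondrial protein Higd1a had scores with a lowest of -2.36, a median of 0.401 and a highest of 4.80 with insulin, against -3.98, -1.60 and 0.099 with vehicle. Insulin was higher in all 27 matched pairs, by 2.69 ± 0.337 (SE; adjusted p = 1.7e-06), and a second probe of the gene gave 2.32 ± 0.343. The mitophagy receptor Bnip3 was higher by 2.24 ± 0.353 (adjusted p = 0.000102), with insulin higher in 24 of 27 pairs. Haem oxygenase 1 (Hmox1) was higher by 1.03 ± 0.265, although its second probe, at 0.616, did not pass and run D alone gave -0.415. The vascular growth factor Vegfa (-0.216), adrenomedullin (Adm, -0.577), the stress gene Ndrg1 (-0.101), the Bnip3 relative Bnip3l (0.102), the collagen hydroxylase P4ha2 (0.0551) and the Hif1a message itself (0.321) did not pass, nor did the phosphofructokinase-2 isozyme Pfkfb4 (-0.0239).

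**Figure D2:**
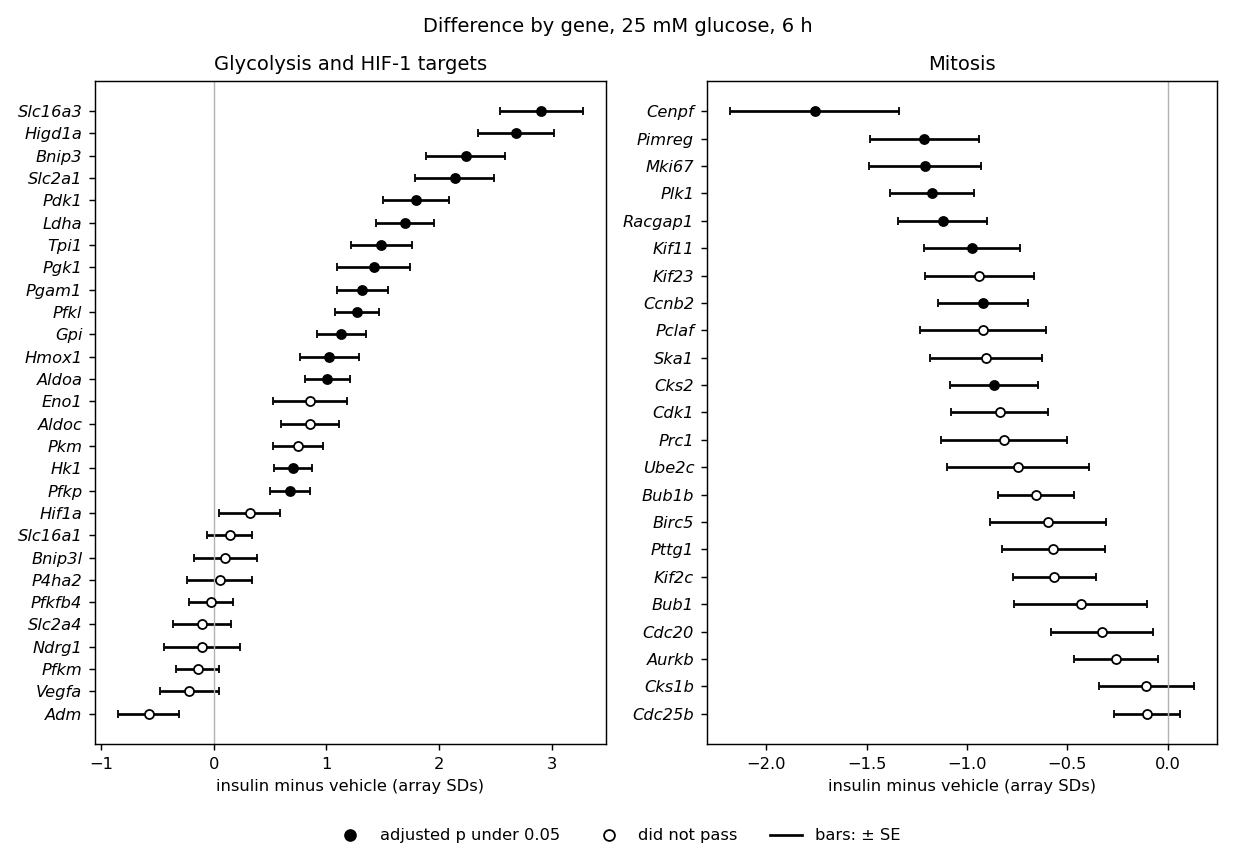
Insulin minus vehicle in array SDs for every measured member of the glycolysis and HIF-1 list (left, 28 genes) and of the mitosis list (right, 23 genes). Points are fitted differences, bars are ± SE, and filled points passed the adjusted threshold. Differences run from -0.577 (Adm) to 2.91 (Slc16a3) on the left, and all 23 lie below 0 on the right.

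The promoters of these genes were searched for the letters that HIF-1 recognises. The core, ACGTG, was looked for on both strands (CACGT on the printed strand is the same motif, and CACGTG holds 1 match on each strand that share letters) in RefSeq promoters of build GRCr8, which run from 250 bases before to 50 after the annotated start. It lay in 12 of the 23 promoters found for the list (52.2%) and in 7 of the 13 found for its called members (53.8%), against 19.7% of 27457 promoters, 1 for each gene. The list was drawn up partly from HIF-1 targets, so a share above that of all promoters is no result of the insulin comparison. Called members had a share close to that of the whole list. Pgk1, Hmox1, Bnip3l, Slc2a4 and Ndrg1 were not in the table. The promoters of 3 called genes with the motif are shown with it in capitals: Ldha at chr1:106507842-106508141 (plus strand, 3 matches), Pdk1 at chr3:77113264-77113563 (plus strand, 2 matches) and Bnip3 at chr1:203154913-203155212 (minus strand, 2 matches). A match describes these letters and shows no binding.
Ldha: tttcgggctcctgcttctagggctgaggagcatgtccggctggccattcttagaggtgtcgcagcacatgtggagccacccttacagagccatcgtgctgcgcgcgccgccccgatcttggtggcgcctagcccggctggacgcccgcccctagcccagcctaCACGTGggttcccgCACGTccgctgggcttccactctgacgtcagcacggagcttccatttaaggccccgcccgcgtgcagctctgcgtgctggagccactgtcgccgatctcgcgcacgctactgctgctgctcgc
Pdk1: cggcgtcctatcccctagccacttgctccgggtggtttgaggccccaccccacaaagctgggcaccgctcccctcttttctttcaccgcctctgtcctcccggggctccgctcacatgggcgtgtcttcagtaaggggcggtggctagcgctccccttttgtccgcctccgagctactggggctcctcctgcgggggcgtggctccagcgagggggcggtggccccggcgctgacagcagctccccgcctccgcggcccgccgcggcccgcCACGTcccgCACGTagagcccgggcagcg
Bnip3: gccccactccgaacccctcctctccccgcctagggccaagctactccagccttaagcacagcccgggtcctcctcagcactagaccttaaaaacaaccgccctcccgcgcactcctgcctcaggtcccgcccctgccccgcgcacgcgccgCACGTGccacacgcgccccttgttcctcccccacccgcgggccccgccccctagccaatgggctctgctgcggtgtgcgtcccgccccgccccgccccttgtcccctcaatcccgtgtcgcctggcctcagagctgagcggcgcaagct

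Rises outside the list included secreted and metabolic genes. Apelin (Apln), a secreted peptide that acts on vessels and heart, was higher by 2.14 ± 0.27 on 1 probe and by 1.59 ± 0.402 on another. Its scores on the first probe had a lowest value of -2.78, a median of -0.747 and a highest of 1.66 with insulin, against -5.88, -2.88 and -0.313 with vehicle. G0s2, an inhibitor of the triglyceride lipase of fat cells, was higher by 1.73 ± 0.413, with 1 vehicle array at 7.49 above every insulin array. Tmem106a was higher by 1.76 ± 0.348, a difference carried by run A (3.91) and run C (3.41), while runs B and D gave 0.0607 and 0.0137. Monoamine oxidase A (Maoa) was higher by 1.41 ± 0.273 and the dynein light chain Dynll1 by 1.39 ± 0.24.

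**Figure D3:**
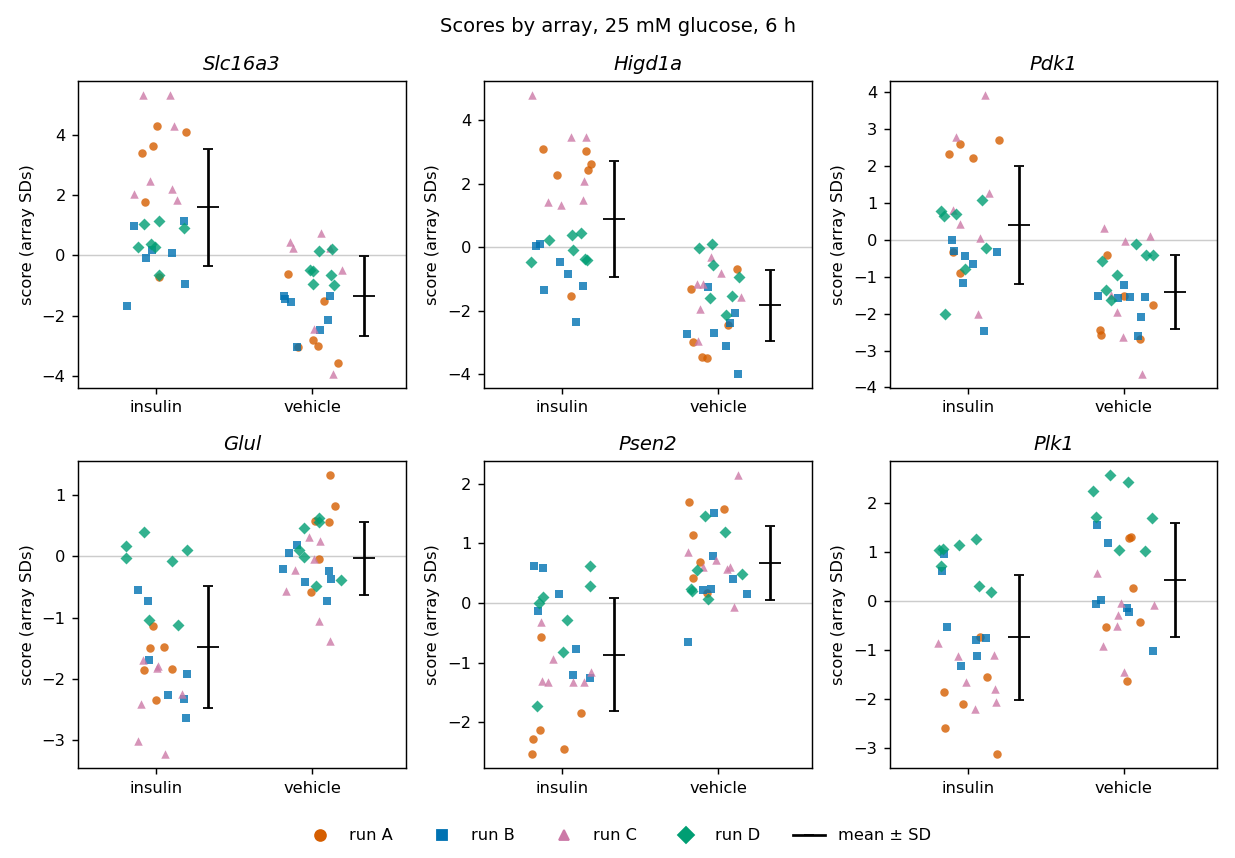
Scores of 6 genes on each array, in array SDs, for insulin (left) and vehicle (right), with the run shown by colour and symbol and the mean ± SD (n = 27 each) beside the points. Slc16a3, Higd1a and Pdk1 lie higher and Glul, Psen2 and Plk1 lower with insulin, and the groups overlap in each.

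Glutamine synthetase, presenilin 2 and Ypel3 had the smallest adjusted p-values among the named falls. Glutamine synthetase (Glul), which makes glutamine from glutamate and ammonia, had a lowest score of -3.23, a median of -1.69 and a highest of 0.399 with insulin, against -1.39, -0.039 and 1.33 with vehicle. It fell by 1.43 ± 0.194 array SDs (SE; adjusted p = 8.38e-06), with insulin lower in 25 of 27 pairs and 17 insulin arrays below every vehicle array. Presenilin 2 (Psen2), a catalytic subunit of gamma-secretase, had -2.54, -0.937 and 0.62 with insulin, against -0.66, 0.568 and 2.15 with vehicle. It fell by 1.499 ± 0.225 (SE; adjusted p = 4.96e-05), and 16 insulin arrays lay below every vehicle array. Ypel3 had -5.70, -1.01 and 1.11 with insulin, against -1.53, 0.558 and 1.99 with vehicle, a fall of 1.78 ± 0.283 (SE; adjusted p = 0.000113).

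Other falls touched metabolism, adhesion and the cytoskeleton. Fam180a fell by 1.99 ± 0.394 array SDs and did so by 1.72 to 2.68 in every run. Between drug conditions it varied more, from -3.72 in DMSO to 0.0158 at 1000 ng/mL paclitaxel. Arginase 1 (Arg1), which splits arginine into ornithine and urea, fell by 1.58 ± 0.297, cysteine dioxygenase (Cdo1), the first enzyme of cysteine breakdown, by 1.40 ± 0.343 and the collagen receptor subunit integrin alpha 1 (Itga1) by 1.46 ± 0.301. Stathmin (Stmn1), which destabilises microtubules, fell by 1.38 ± 0.254. Gkap1 fell by 1.66 ± 0.463, the interferon-inducible gene Ifi27l2b by 1.34 ± 0.357, Bcas3 by 1.32 ± 0.328 and Ankrd42 by 1.26 ± 0.35. Another probe of Ifi27l2b gave -0.932 and did not pass. Gkap1 had the opposite sign at 100 ng/mL rapamycin (1.59) and at 1 ng/mL paclitaxel (0.152).

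Among 19 genes drawn up as FOXO-linked or known to be lowered by insulin, 4 were called lower (Ypel3, Glul, Cdo1 and the pocket protein Rbl2, at -0.852 ± 0.205) and 0 higher, with a median of -0.285. Ypel3, Glul and Cdo1 were put on that list with earlier results of these samples known, so the count is not independent evidence of its direction. In cells given only DMSO the median of the list was -0.061, with 9 of 19 above 0. Under the drug doses it lay between -0.286 (100 ng/mL rapamycin) and -1.36 (0.01 ng/mL paclitaxel). Members best known as FOXO targets in other tissues did not pass: the insulin receptor substrate Irs2 differed by 0.293, Txnip, an inhibitor of glucose uptake, by 0.122, the liver gene Igfbp1 by -0.133, the leucine zipper gene Tsc22d3 by -0.337, Klf15 by -0.875 and the cyclin Ccng2 by -0.828. The FOXO motif GTAAACA, searched on both strands, lay in 2 of 16 promoters found (12.5%), those of Ypel3 and Trim63, against 3.76% of all promoters. The list was drawn up partly from FOXO-linked genes, so this share is no result of the insulin comparison, and a match shows no binding. Irs2, Txnip and Cdo1 were not in the table. The Ypel3 promoter, at chr1:190814706-190815005 on the plus strand, is shown with its match in capitals.
Ypel3: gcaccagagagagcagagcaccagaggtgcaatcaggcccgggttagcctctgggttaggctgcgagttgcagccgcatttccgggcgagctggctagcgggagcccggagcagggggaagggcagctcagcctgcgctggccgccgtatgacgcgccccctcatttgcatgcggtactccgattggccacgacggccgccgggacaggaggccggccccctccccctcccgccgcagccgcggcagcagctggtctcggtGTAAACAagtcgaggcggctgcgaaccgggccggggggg

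Mitotic genes were lower with insulin. All 23 measured members of the mitosis list had a difference below 0, with a median of -0.838, 8 were called lower and 0 higher, while over all genes with a symbol 3198 of 6502 lay below 0. The kinetochore protein Cenpf fell by 1.76 ± 0.421 array SDs, Pimreg by 1.21 ± 0.271 and the proliferation antigen Mki67 by 1.21 ± 0.279. Polo-like kinase 1 (Plk1), which drives entry into and passage through mitosis, had a lowest score of -3.13, a median of -0.866 and a highest of 1.26 with insulin, against -1.65, 0.017 and 2.56 with vehicle, and fell by 1.17 ± 0.208 (SE; adjusted p = 0.000505). Insulin was lower in 23 of its 27 pairs, though the groups overlapped over most of their range. Racgap1, needed for cytokinesis, fell by 1.12 ± 0.223, the spindle motor Kif11 by 0.976 ± 0.238, cyclin B2 (Ccnb2) by 0.922 ± 0.224 and the kinase subunit Cks2 by 0.865 ± 0.217. The cyclin-dependent kinase Cdk1 (-0.838), the checkpoint kinase Bub1b (-0.656) and the motor Kif23 (-0.939) each missed the threshold with an adjusted p of 0.0571, and Aurkb (-0.257), Cks1b (-0.106) and Cdc25b (-0.102) lay near 0.

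The mitotic calls were the less secure of these results. Without run A 1 member passed and without run C 1 did, and with no run block or with all arrays in 1 fit the count was 0. The median of the list lay between -0.654 and -1.09 under the alternatives run. Genes of G1 to S progression and DNA replication did not share the shift: 1 of 32 was called lower (DNA ligase 1, Lig1, at -0.704 ± 0.196), 0 higher, and the median was -0.082. The cell-cycle motif TTTGAA, searched on both strands, lay in 14 of the 19 promoters found for the mitosis list (73.7%), against 18.1% of all promoters. This share describes the listed genes, whether called or not. Aurkb, Ube2c, Racgap1 and Pimreg were not in the table. The promoters of Mki67 at chr1:199952544-199952843 (minus strand, 2 matches) and Plk1 at chr1:186147408-186147707 (plus strand, 1 match) are shown with the motif in capitals.
Mki67: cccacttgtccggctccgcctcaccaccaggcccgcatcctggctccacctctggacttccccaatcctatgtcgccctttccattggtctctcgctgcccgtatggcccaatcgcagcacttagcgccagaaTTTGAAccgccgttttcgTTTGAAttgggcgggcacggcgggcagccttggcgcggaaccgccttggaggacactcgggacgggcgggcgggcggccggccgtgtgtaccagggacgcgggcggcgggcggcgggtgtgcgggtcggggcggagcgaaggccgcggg
Plk1: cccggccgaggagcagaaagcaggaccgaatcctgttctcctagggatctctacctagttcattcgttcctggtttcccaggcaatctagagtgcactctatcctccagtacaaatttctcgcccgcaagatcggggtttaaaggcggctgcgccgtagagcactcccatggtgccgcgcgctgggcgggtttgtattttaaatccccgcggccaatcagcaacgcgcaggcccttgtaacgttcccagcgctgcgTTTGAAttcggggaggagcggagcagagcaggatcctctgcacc

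Few genes of the insulin pathway itself passed. Of 35 measured genes of insulin and IGF signalling, 2 were called lower and 0 higher, with a median of -0.111. Over all genes with a symbol 1.03% were called lower, and 25 of these 35 lay below 0. The leukocyte-enriched PI3-kinase catalytic subunit Pik3cd had a mean score of -0.0314 ± 0.676 with insulin and 0.953 ± 0.855 with vehicle (SD, n = 27 each), a fall of 1.03 ± 0.19 (SE; adjusted p = 0.000952). The IGF-binding protein Igfbp6 fell by 0.774 ± 0.205. The adaptor Grb14, an inhibitor of the insulin receptor, differed by -1.11 and did not pass. The regulatory subunit Pik3r1 (0.292) and the growth factor Igf1 (-0.235) did not pass either. Immediate early genes, which growth factors induce within minutes, had 0 calls in 29, with 24 below 0 and a median of -0.261. Among them Egr1 differed by -0.0807 ± 0.281 and Myc by -0.295 ± 0.28.

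Biosynthetic lists held scattered calls. For sterol synthesis and uptake 1 of 18 was called, the regulator Insig2 at 0.833 ± 0.231. That list's median of 0.498 came from run A, where it was 2.01, against 0.0806 in run B, 0.318 in run C and -0.051 in run D. Fatty acid synthesis had 0 of 18, with a median of 0.158. In the endoplasmic reticulum list 3 of 25 were called higher: the chaperone Hyou1 (0.843 ± 0.211), the disulfide-forming oxidase Ero1a (0.761 ± 0.206) and the co-chaperone Dnajb11 (0.708 ± 0.148). The chaperone Hspa5 differed by 1.13 and did not pass. None of the 3 passed without run A or without run C.

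Among genes of nucleotide synthesis, the mitochondrial folate enzyme Mthfd1l (1.26 ± 0.34) and uridine-cytidine kinase Uck2 (0.669 ± 0.163) were higher and the purine enzyme Paics lower (-0.922 ± 0.227), of 23. In the ATF4 list, a programme that responds to amino acid shortage, 3 of 23 were lower and 0 higher: the amino acid transporter Slc38a2 (-1.16 ± 0.24), the stress gene Nupr1 (-0.896 ± 0.206) and the Atf4 message (-0.798 ± 0.19). Ribosome biogenesis had 2 of 29 higher, the RNA polymerase I factor Rrn3 (0.785 ± 0.213) and Bysl (0.673 ± 0.176). The aminoacyl tRNA synthetase list had Qars1 lower (-0.815 ± 0.223) and the scaffold Aimp2 higher (0.757 ± 0.198), of 13. Cytosolic ribosomal proteins had 0 of 45, translation factors 0 of 31, heat shock proteins and cytosolic chaperones 0 of 25 and extracellular matrix genes 0 of 25.

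Of the remaining lists, the contractile smooth muscle list had 1 of 18 called, vinculin (Vcl, 0.652 ± 0.172), and a median of 0.0484. The proteasome had 1 of 34 (Psma1, 0.618 ± 0.171) and the respiratory chain 1 of 43 (cytochrome c, Cycs, 0.878 ± 0.207). Redox genes had 1 of 25, Hmox1 again, and the p53 list 1 of 14, Gadd45b, lower by 0.845 ± 0.222. The inflammatory list had 1 of 26, the chemokine Cx3cl1, lower by 1.17 ± 0.255. The lysosome list had 1 of 32, the protease Ctsa, whose difference of 2.51 ± 0.70 had an adjusted p of 0.0473 and the opposite sign in run A (-0.376). Of 18 amino acid and glucose transporters 2 were called, Slc2a1 and Slc38a2.

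For 149 of the 213 called probes the difference was larger in size in both runs A and C than in B and D. The calls were selected on the pooled difference and the share of all probes with this pattern is not given, so the count is a description. Among the 213 called probes, the median size of the difference was 1.52 array SDs in run A, 0.579 in B, 1.34 in C and 0.558 in D, while over all probes it was 0.362, 0.33, 0.329 and 0.261. Slc16a3 differed by 5.17 in run A, 1.86 in B, 4.08 in C and 0.938 in D, and Glul by -2.14, -1.49, -1.93 and -0.351. In the mean over the 28 glycolysis and HIF-1 genes, run A stood at 0.689 ± 0.547 with insulin and -0.828 ± 0.43 with vehicle (SD, n = 6 arrays each). For run C these were 0.822 ± 0.646 and -0.559 ± 0.473, for run B -0.51 ± 0.39 and -1.09 ± 0.401, and for run D -0.101 ± 0.259 and -0.389 ± 0.124 (n = 7 each). The mitosis list also had its larger differences in A and C, with a median of -1.32 array SDs in run A, -0.306 in B, -0.879 in C and -0.724 in D. The median of the FOXO-linked genes did not have this order, at -0.404, -0.304, -0.47 and -0.465. In the mean over those 19 genes, however, insulin and vehicle lay further apart in A and C. With insulin and vehicle these means were -0.61 and 0.0287 in A and -0.597 and 0.132 in C. They were -0.215 and -0.0328 in B and -0.156 and 0.146 in D. An F test that allowed the insulin response to differ between runs, added after the data were seen, passed the adjusted threshold for 17 probes over the whole table and for 8 of the 213. Those 8 include Slc16a3 (adjusted p = 0.00951), Higd1a (0.0256 and 0.00657), Tmem106a (7.74e-05) and Arg1 (0.0031). Whether the runs differed in cells, insulin or handling was not tested.

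Named genes differed in how far they leaned on those runs. Without run A 10 of the 15 most raised probes and 4 of the 15 most lowered still passed, and without run C 8 and 5 did. Those that passed in both cases were Slc16a3, both probes of Higd1a, Bnip3, 1 probe of Apln, Pdk1, Ldha and 1 probe of Dynll1 among the rises and Ypel3, Psen2, Glul and Stmn1 among the falls. Of the glycolysis list 8 were called without run A and 7 without run C, against 15 with all runs.

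**Figure D4:**
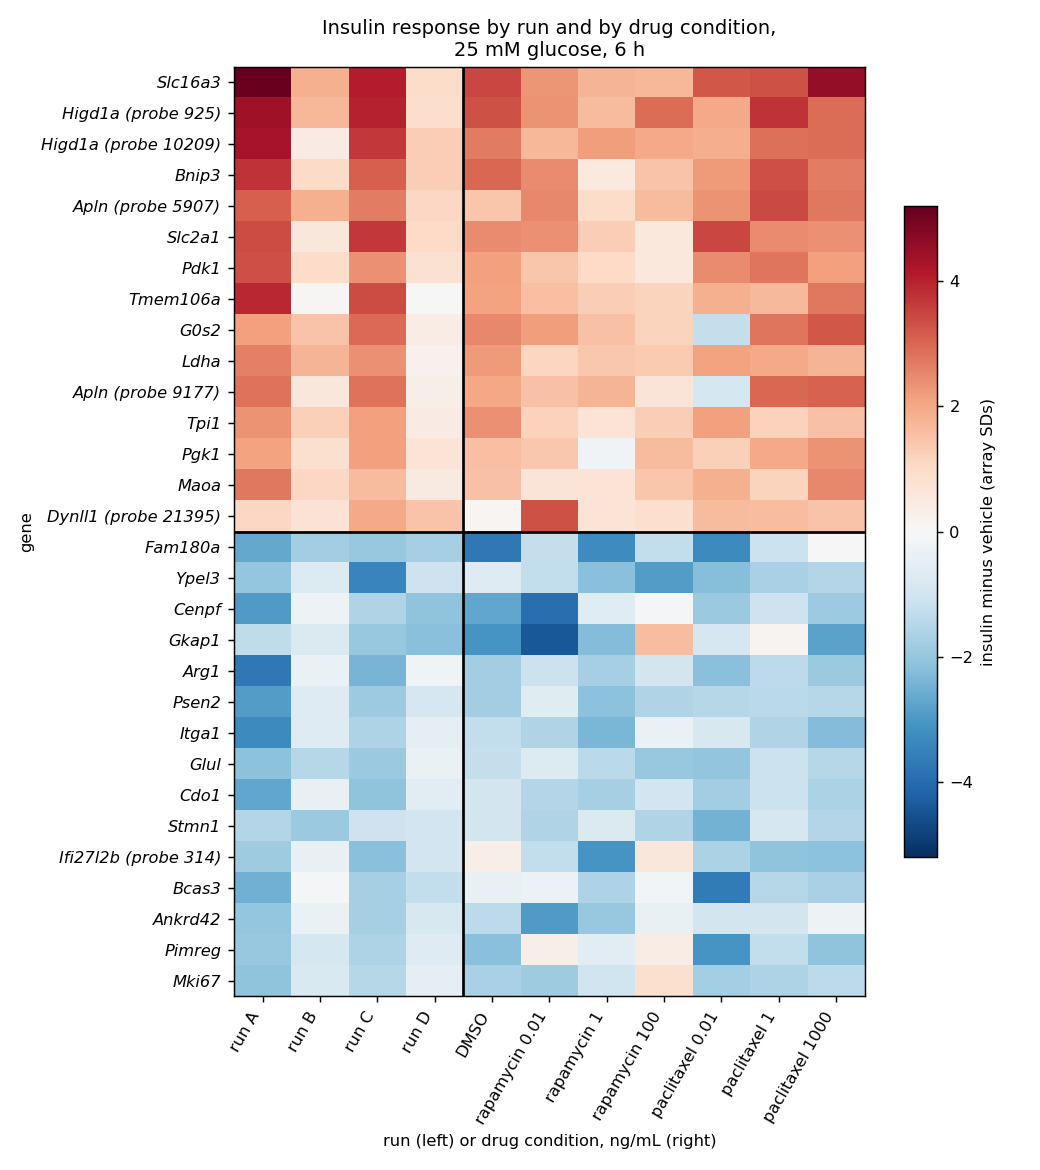
Insulin minus vehicle, in array SDs by colour, for the 15 most raised (top) and 15 most lowered (bottom) named probes, in each run over all drug conditions (left) and in each drug condition over all runs (right, doses in ng/mL). The difference is larger in both A and C than in B and D for 26 of the 30 probes (Slc16a3 gave 5.17 and 4.08 in A and C, 1.86 and 0.938 in B and D), while Stmn1 is largest in run B (-1.92) and Gkap1 in run D (-2.16). The 30 probes were selected for a large pooled difference, so this count is a description.

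Across the drug conditions the signs mostly held, in all 7 for 153 of the 213 called probes. Exceptions included Mki67 (0.824) and Pimreg (0.370) at 100 ng/mL rapamycin, where 9 of the 23 mitosis genes lay above 0. Pimreg was also above 0 at 0.01 ng/mL rapamycin (0.322), where 6 of the 23 lay above 0. At 0.01 ng/mL paclitaxel G0s2 differed by -1.25 and 1 probe of Apln by -0.923. In cells given only DMSO the glycolysis list had a median difference of 1.19, under 0.01, 1 and 100 ng/mL rapamycin 0.847, 0.512 and 0.629, and under 0.01, 1 and 1000 ng/mL paclitaxel 1.03, 0.872 and 0.993. Slc2a1 differed by 2.44 ± 0.59 in DMSO (SD over 4 runs, or over 3 at 0.01 ng/mL rapamycin) and by 2.39 ± 2.21, 1.27 ± 3.57 and 0.538 ± 1.54 at the 3 rapamycin doses in rising order. Under paclitaxel it differed by 3.49 ± 1.90, 2.46 ± 1.35 and 2.38 ± 2.05 in the same order. The mitosis list had a median of -1.09 in DMSO, -0.488, -0.569 and -0.0685 under rapamycin and -1.30, -0.902 and -1.05 under paclitaxel. Plk1 differed by 0.04 ± 0.562 at 100 ng/mL rapamycin, against -1.91 ± 1.18 in DMSO. Ypel3 and Glul did not follow that order, at -2.90 ± 2.70 and -1.96 ± 1.23 under 100 ng/mL rapamycin, against -0.652 ± 1.84 and -1.24 ± 1.13 in DMSO.

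A direct test of the response under 1 and 100 ng/mL rapamycin minus that in the other 5 drug conditions called 0 probes in limma, with 581 at an unadjusted p under 0.05 and a smallest adjusted p of 0.159. For Slc2a1 that difference was -1.73, for Slc16a3 -1.64, for Pdk1 -1.39 and for Mki67 1.55, each with an adjusted p of 0.957. The median SE of this difference, 0.467 over all probes, is larger than that of the insulin response itself, 0.214. Without the 2 higher rapamycin doses 125 probes passed in the main comparison, and in DMSO cells alone, 4 arrays against 4, 0 passed and 615 had an unadjusted p under 0.05.

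At 5 mM glucose, the same contrast at 6 h called 413 probes (3.57%), 199 higher (1.72%) and 214 lower (1.85%). The 2 contrasts share no arrays. Of the 213 probes called at 25 mM, 209 had the same sign at 5 mM, and 66 were called higher and 62 lower in both, which is 60.1% of the calls at 25 mM and 31% of those at 5 mM. The 213 were selected for their difference at 25 mM, and the share of all probes with the same sign at both levels is not given. The correlation of the differences over the 11575 probes was 0.54, a description of probes measured in the same runs. Slc16a3 differed by 2.91 at 25 mM and 2.30 at 5 mM, Slc2a1 by 2.14 and 1.96, Glul by -1.43 and -1.53, Ypel3 by -1.78 and -2.09, and Plk1 by -1.17 and -0.684. The difference between the glucose levels passed for 0 probes in limma, with 393 at an unadjusted p under 0.05 and a smallest adjusted p of 0.999. The median SE was 0.298, and a difference in response near 1 array SD could go uncalled. That of Higd1a (probe 925) was 0.907, with an adjusted p of 0.999 in limma. The absence of calls therefore does not show equal responses.

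At 24 h in 25 mM glucose, the contrast called 76 probes (0.657%), 49 higher (0.423%) and 27 lower (0.233%). Of these, 5 and 8 were called in the same direction at 6 h, which is 17.1% of the calls at 24 h and 6.10% of those at 6 h. Of the 213 probes called at 6 h, 138 had the same sign at 24 h. Slc2a1 differed by -0.449, Slc16a3 by 0.581 and Higd1a by 0.617 at 24 h, and none of them passed there. The test of the response at 6 h minus that at 24 h called 51 probes (0.441%), 21 higher (0.181%) and 30 lower (0.259%). Of the glycolysis list 5 had a response called higher at 6 h than at 24 h and 0 one called lower: Slc2a1 (2.59 ± 0.467), Slc16a3 (2.33 ± 0.488), Higd1a (2.07 ± 0.494), Bnip3 (1.92 ± 0.467) and Pfkl (1.34 ± 0.28). Of the mitosis list 7 had a response called lower at 6 h than at 24 h, among them Mki67 (-2.20 ± 0.435), Ska1 (-1.82 ± 0.399), Plk1 (-1.75 ± 0.334) and Pimreg (-1.69 ± 0.394).

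All 23 mitotic genes had a difference below 0 at 6 h, and 20 of the 23 had a difference above 0 at 24 h, none of them past the threshold there. Prc1 (-0.292), Cdc20 (-0.131) and Bub1b (-0.015) lay below 0 at 24 h as well. The median of the mitosis list was -0.838 at 6 h and 0.45 at 24 h, and Mki67 differed by -1.21 at 6 h and 0.993 at 24 h (adjusted p = 0.103 at 24 h). The spindle protein Aspm had a difference between the hours of -2.20 ± 0.425 and the collagen gene Col5a3 one of -2.02 ± 0.484. The number of calls changed with the runs used: without run A 5 probes passed, without run C 0, and with no run block 1, against 128 without run B and 57 without run D. Of the 5 without run A, 0 had a higher response at 6 h and 5 a lower one. The glycolysis calls for this difference therefore passed neither without run A nor without run C.

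**Figure D5:**
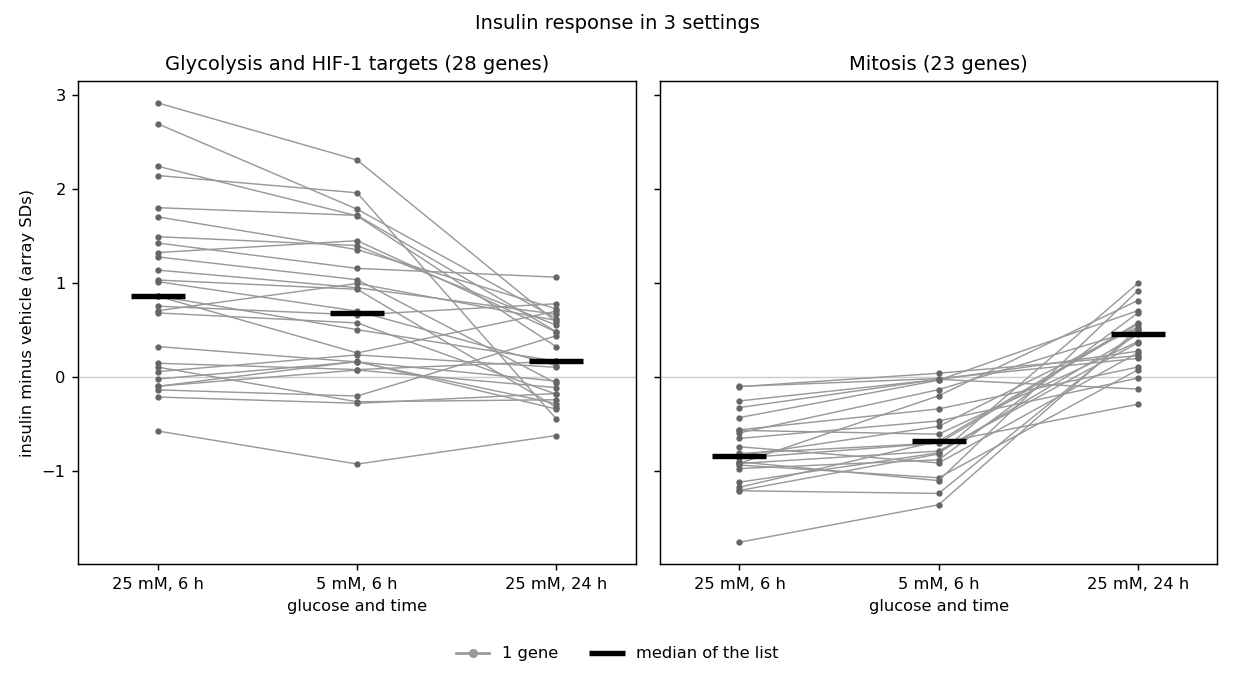
Insulin minus vehicle in array SDs for each gene of the glycolysis and HIF-1 list (left, 28 genes) and the mitosis list (right, 23 genes) at 25 mM glucose and 6 h, 5 mM and 6 h, and 25 mM and 24 h. Grey lines join the values of 1 gene and black bars are list medians: 0.857, 0.678 and 0.165 on the left, -0.838, -0.684 and 0.45 on the right.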

How the data were processed

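Scores for 224 arrays and 11575 probes were read from the table the authors deposited (columns with no sample: 0). Per the series' design text in the labels, the authors scanned with GenePix, normalized by loess, filtered and imputed features, removed principal components linked to the 4 runs, and standardized the data. That removal may have changed how far runs differ in the scores. The sources used here do not give the log base, and the scores are not log2 folds. The tests had been planned for log ratios, and limma was used on the scores all the same.

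Group means of the 14 groups and a run block were fitted to the 54 arrays (limma 3.58.1, R 4.3.3; 37 residual degrees of freedom). The contrast was the equal-weight mean of insulin minus vehicle over 7 drug conditions, with eBayes, Benjamini-Hochberg adjustment over 11575 probes and a two-sided threshold of 0.05. Comparisons of glucose and time added the 56 arrays of the other setting. The pairing comes from the labels, which give each array its replicate run. The mean correlation of deviations from the group means was 0.0643 for arrays of the same run (0.0986 in A, 0.0615 in B, 0.0624 in C, 0.044 in D) and -0.0215 for arrays of different runs. The number of arrays limits the precision.

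Named genes were the 15 largest rises and 15 largest falls among called probes with 1 symbol and the same sign in 4 runs, up to 4 called members of each list, 3 in each direction for the other comparisons, and Irs2, Pik3r1, Txnip, Slc2a1, Myc, Egr1, Igf1 and Tsc22d3 whatever their result. Members of the glycolysis and mitosis lists and uncalled members of other lists were named after their values were seen. The members and the 29 lists were chosen with earlier results of these data known. The platform annotation gave 1 symbol for 7473 probes, several for 2 and none for 4100, and the first probe stood for a gene in the lists. The procedure was tested on simulated data. Alternatives changed the block, the unit, the arrays kept, the scaling, the weights and the variance prior.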

Additional observations from a re-analysis of the deposited data

Results flagged for a closer look

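The insulin response at 25 mM glucose differed between 6 and 24 h for 51 probes, 38 of them with a gene symbol. This was a test of the difference itself, with run as a block. The 9 probes flagged here are among those 38. The response at 6 h minus that at 24 h was 2.588 array SDs for Slc2a1, 2.33 for Slc16a3, 2.071 and 1.863 for the 2 probes of Higd1a (probe 925 and probe 10209) and 1.919 for Bnip3. It was -2.202 for Mki67, -2.201 for Aspm, -2.025 for Col5a3 and -1.686 for Pimreg. Adjusted p-values in limma lay between 0.00134 (Slc2a1) and 0.0279 (Bnip3). Runs A and C carried larger 6 h responses than B and D in most of these genes, and without run C 0 of the 51 probes called in this comparison passed. Without run A 4 of the 51 passed, and 0 probes were called with a higher response at 6 h. The part of the runs in the difference between the hours was otherwise not tested.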

How the results depend on the processing

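The 213 calls (102 higher, 111 lower) moved with the runs and with the arrays used. Leaving out each run in turn gave 29 to 392 calls (15 to 182 higher, 13 to 210 lower). The fit with no replicate block gave 106 (52 and 54), and all of these were among the 213. All arrays in 1 fit gave 139 (75 higher, 64 lower), the run as the unit 0, DMSO arrays alone 0, and leaving out 1 and 100 ng/mL rapamycin 125 (53 and 72). Pairs of the same drug and run as a block (158), the 2 near-identical arrays kept (184), scaling by the median absolute deviation (193), quantile normalization (222), array weights (305 in all) and a robust prior (213) were also run. With DMSO arrays alone 3 named genes reversed: Ifi27l2b (probe 314) to 0.3235, Rrn3 to -0.271 and Atf4 to 0.2075. No other named gene that was called in either fit reversed under the alternatives run.

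The 51 calls for 6 minus 24 h (21 higher, 30 lower) ranged from 0 to 128 (0 to 61 higher, 0 to 67 lower) without each run in turn. With no replicate block 1 probe passed (1 higher, 0 lower), and with all arrays in 1 fit 7 did (4 and 3). The cause of these changes was not tested beyond the difference between runs given above. The comparisons of the glucose levels and of the rapamycin doses called 0 probes under each alternative run, the replicate block included. How far each probe lay above background was not examined.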
